A study of Mus musculus with 22 samples.

Results

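The TGF-beta family genes described here are the ligands Tgfb1, Tgfb2 and Tgfb3, the receptors Tgfbr1, Tgfbr2 and Tgfbr3, and the latent TGF-beta binding proteins Ltbp1, Ltbp2, Ltbp3 and Ltbp4. They were chosen by name with earlier results of these data known. They make up 10 of the 24454 genes in the count table, and all 10 are accounted for. In these libraries the receptors and Tgfb2 were not called different between the CD44Neg and CD44LowKitNeg endothelial populations at an adjusted p under 0.01. Tgfbr1 (0.53 ± 0.20) and Tgfbr3 (0.65 ± 0.27) were fitted higher in CD44LowKitNeg cells on the log2 scale (SE, 6 against 10 libraries) without passing it. Ltbp1 and Ltbp4 were higher there by 3.79 ± 0.48 and 3.70 ± 0.60. These groups were not balanced by stage, and with stage as a covariate the Ltbp1 and Ltbp4 differences were 4.15 ± 0.55 and 2.55 ± 0.47, both still called by edgeR. Ltbp3 had counts in every CD44LowKitNeg library from E11 and in no earlier one. Ltbp4 was at or close to 0 in the 3 CD44High libraries, and Ltbp1 was lower there than in CD44LowKitNeg libraries.

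TGF-beta is made as a precursor whose propeptide stays wrapped around the mature growth factor, so that the secreted protein is latent. Latent TGF-beta binding proteins are secreted matrix glycoproteins. Of these, LTBP1, LTBP3 and LTBP4 can attach latent complexes to fibrillin and fibronectin fibres, from which integrins or proteases can release the ligand. Which ligand each of them held was not measured here. LTBP2 is a related matrix protein that is not known to bind latent TGF-beta. The free ligand brings TGFBR2 and TGFBR1 (ALK5) together, and TGFBR1 then phosphorylates SMAD2 and SMAD3, with TGFBR3 (betaglycan) acting as a co-receptor that presents TGF-beta2 in particular. In blood vessels this pathway is known for roles in vessel wall assembly and in the transition of endothelium to other fates.

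The libraries were made from C57BL/6 mouse embryos at embryonic days E9.5, E10 and E11, each from 25 cells of the aorta-gonad-mesonephros (AGM), the region in which the first blood stem and progenitor cells arise from endothelium. All were sorted for VE-Cadherin, an endothelial adhesion protein, and then by the surface proteins CD44 and Kit, and none was treated or cultured. The endothelial label went with CD44Neg, which had 4 libraries from E9.5 and 3 from each later day, and the hemogenic endothelial label with CD44LowKitNeg, which had 1, 2 and 3 libraries from the 3 days in order. CD44LowKitPos libraries (labelled Pre-HSPC, for haematopoietic stem and progenitor cell) numbered 1 at E9.5 and 2 at E10, and CD44High libraries (labelled HSPC) numbered 3, all at E11. No stage holds both CD44LowKitPos and CD44High. The number of embryos behind a library is not given in the sources used here, so p-values measure the spread between these libraries, which may be partly technical. A date in the labels changes with the stage, so stage and date cannot be told apart.

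Between 3912350 and 8657546 reads were counted per library, over 10825 to 12627 genes. Endothelial markers summed to 3519 to 5924 normalized CPM in CD44Neg, 3723 to 8666 in CD44LowKitNeg and 766 to 1854 in CD44LowKitPos libraries. They summed to 14.3 to 78.8 in the CD44High libraries, where Cdh5, the gene of VE-Cadherin, was at 0 in all 3 although the sort selected for its protein. All 9 macrophage markers had counts in those 3 libraries, summing to 3798 to 5893, against 237 to 277 in CD44LowKitPos and at most 80.0 in any CD44LowKitNeg library. Transcript markers and the sorted surface protein thus differed in the libraries labelled CD44High, and macrophage markers stood beside their HSPC label. Normalized CPM means counts scaled to a common library size (CPM) with edgeR's TMM library scaling, and 3 counts, the most that a count of 0 allows, equal 0.348 to 0.816 normalized CPM depending on the library. That limit covers counting error only, since the reads carry no molecular identifiers. In sorted pools of this kind, fewer expressing cells and less RNA per cell cannot be told apart.

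Tgfb2 was the ligand that the endothelial libraries expressed. Its lowest, median and highest values in the 10 CD44Neg libraries were 5.02, 21.5 and 38.0 normalized CPM. In the 6 CD44LowKitNeg libraries they were 7.63, 14.95 and 67.8. The full ranges overlapped, with 1 CD44LowKitNeg library from E10 far above its group. At E11 the CD44LowKitNeg libraries (19.8, 7.63 and 15.6) lay below the CD44Neg libraries (23.6, 30.5 and 30.5), as for 19.2% of genes, and the log2 difference at E11 alone was −0.92 ± 0.53 (edgeR adjusted p = 0.330). CD44LowKitPos libraries were at 2.26 (E9.5), 0.155 and 3.20 (both E10), all below every CD44Neg library (as were 4.37% of genes) and every CD44LowKitNeg library (7.35%). CD44High libraries were at 10.9, 4.53 and 0.544 and overlapped the lower endothelial values.

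Tgfb1, which encodes the ligand prototype of the family, and Tgfb3 were close to the detection limit. Tgfb1 ranged from 0 to 4.18 normalized CPM in CD44Neg libraries with a median of 0.612, and from 0.464 to 1.68 in CD44LowKitNeg libraries with a median of 0.607. Its CD44LowKitPos values were 0, 1.71 and 0.400, and its CD44High values 0.396, 1.33 and 0.816. The 4 populations therefore overlapped at this depth. Tgfb3 was at 0 in all 10 CD44Neg libraries and had counts in 3 libraries of the other populations. These were 4 counts in a CD44LowKitNeg library from E11, 2 in a CD44LowKitPos library from E10 and 25 (6.66 normalized CPM) in a CD44High library. Per kilobase of exon, the scale on which different genes can be compared, Tgfb2 made up 93.7 ± 7.56% (SD, n = 10) of the summed ligand level in CD44Neg and 92.6 ± 6.04% (SD, n = 6) in CD44LowKitNeg libraries.

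Tgfbr1 encodes the type I receptor kinase that phosphorylates SMAD2 and SMAD3. Its lowest, median and highest values were 62.0, 83.3 and 151 normalized CPM in CD44Neg and 87.6, 131 and 181 in CD44LowKitNeg libraries. The CD44LowKitPos libraries were at 125, 61.9 and 112, and the CD44High libraries at 161, 202 and 66.9. The gene was well counted in all 22 libraries, and each population's range overlapped each of the others.

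Tgfbr2 encodes the type II receptor that binds the ligand first. It ranged from 19.3 to 138 normalized CPM in CD44Neg libraries around a median of 60.2, and from 25.5 to 83.2 in CD44LowKitNeg libraries around a median of 71.6. CD44LowKitPos libraries were at 57.9, 34.3 and 37.2 and CD44High libraries at 26.5, 82.3 and 31.3. Again no population stood clear of another. Within CD44Neg, the 3 libraries from E11 were at 77.4, 138 and 101, above the 4 from E9.5 at 50.4, 19.3, 56.2 and 31.4, as for 9.86% of genes tested by stage.

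Tgfbr3 encodes betaglycan. In CD44Neg libraries it ran from 12.3 over a median of 59.3 to 92.5 normalized CPM, and in CD44LowKitNeg libraries from 79.5 over 93.0 to 115. It was at 49.8, 10.9 and 19.3 in the CD44LowKitPos libraries and at 56.2, 39.9 and 17.7 in the CD44High libraries. All 6 CD44LowKitNeg libraries lay above all 3 CD44LowKitPos libraries (as for 7.35% of genes) and above all 3 CD44High libraries (as for 11.7%), but not above all CD44Neg libraries.

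**Figure D1:**
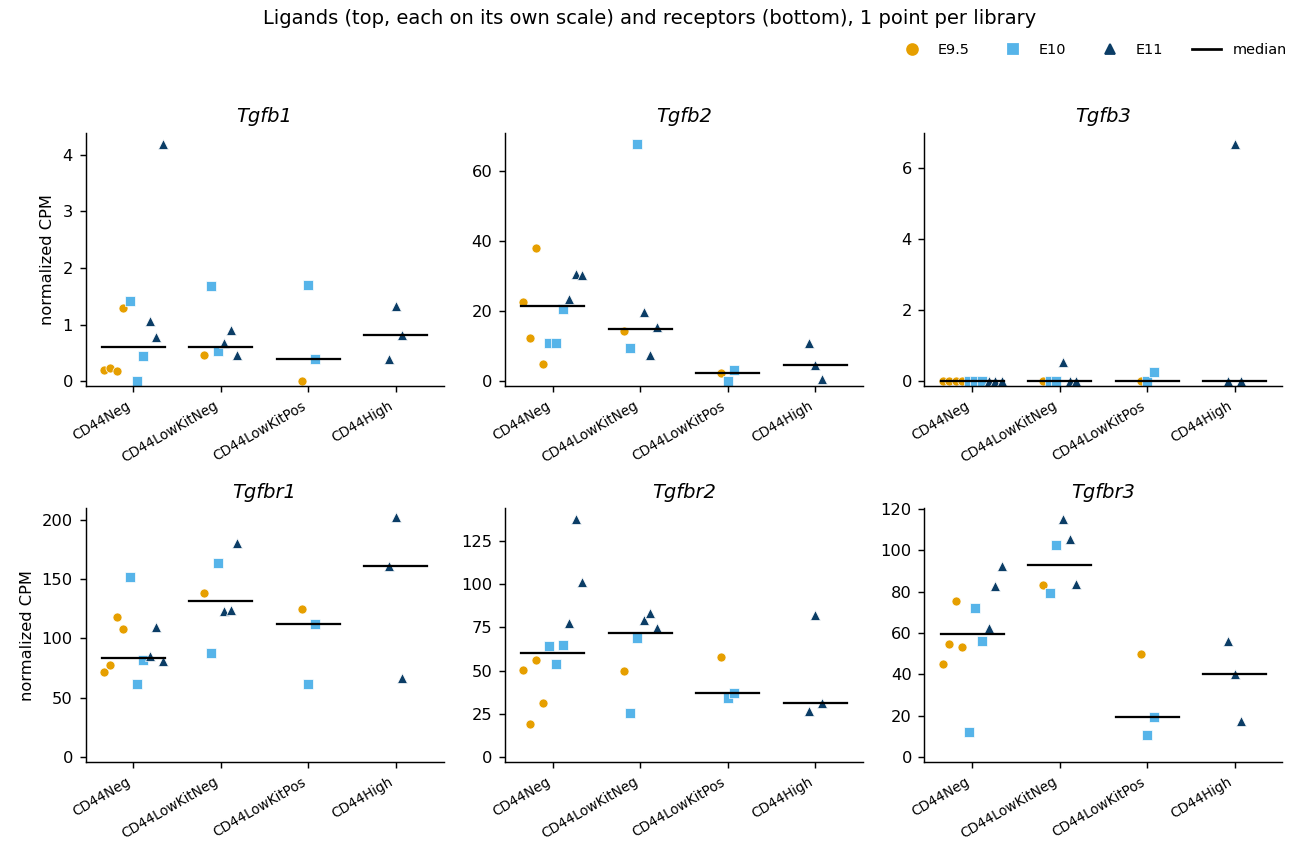
Normalized CPM of the 3 ligands (top) and 3 receptors (bottom) in each library, grouped by population, with marker shape and colour giving the embryonic day and a bar at the median. Each panel has its own linear scale starting near 0. Tgfb2 lies between 5.02 and 38.0 in CD44Neg libraries and at or below 3.20 in the CD44LowKitPos libraries, and the receptors overlap between most populations.

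The latent binding proteins varied far more. The bases upstream of Ltbp1, Ltbp3 and Ltbp4 are shown first, because the text below describes their differences in most detail. Windows are the 250 bases before a RefSeq transcript start (GRCm38.p6), written 5′ to 3′ on the strand of the gene, with matches to CAGAC (the SMAD box) or TGTGGT (the RUNX core), on either strand, in capitals.
Ltbp1 start 1, chr17:75005279-75005528, plus strand: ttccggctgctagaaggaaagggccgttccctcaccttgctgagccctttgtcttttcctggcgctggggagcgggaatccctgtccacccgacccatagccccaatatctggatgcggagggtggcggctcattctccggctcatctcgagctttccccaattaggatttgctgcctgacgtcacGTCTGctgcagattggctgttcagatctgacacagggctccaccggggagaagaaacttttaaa
Ltbp1 start 2, chr17:75178531-75178780, plus strand: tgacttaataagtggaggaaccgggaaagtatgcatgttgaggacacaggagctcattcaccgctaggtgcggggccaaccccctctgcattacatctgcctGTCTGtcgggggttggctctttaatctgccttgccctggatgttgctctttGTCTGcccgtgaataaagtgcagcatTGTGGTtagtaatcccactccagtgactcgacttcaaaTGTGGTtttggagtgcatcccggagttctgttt
Ltbp3, chr19:5740650-5740899, plus strand: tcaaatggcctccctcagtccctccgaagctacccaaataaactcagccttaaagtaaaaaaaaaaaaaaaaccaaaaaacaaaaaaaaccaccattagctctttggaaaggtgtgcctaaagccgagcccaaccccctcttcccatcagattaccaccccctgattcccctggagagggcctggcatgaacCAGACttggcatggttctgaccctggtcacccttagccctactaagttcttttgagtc
Ltbp4 start 3, chr7:27333664-27333913, minus strand: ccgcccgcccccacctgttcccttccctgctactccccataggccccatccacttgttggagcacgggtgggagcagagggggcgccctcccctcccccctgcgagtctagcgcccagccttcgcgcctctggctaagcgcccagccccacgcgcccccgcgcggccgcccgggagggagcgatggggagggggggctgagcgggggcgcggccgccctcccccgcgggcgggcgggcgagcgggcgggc
Ltbp1 start 1 held 1 SMAD box, Ltbp1 start 2 held 2 SMAD boxes and 2 RUNX cores, Ltbp3 held 1 SMAD box, and Ltbp4 start 3 held neither. A SMAD box was present in 42.2% and a RUNX core in 14.0% of all 32851 upstream windows of this length, so these matches are common. Ltbp4 start 3 held 7 matches to GGGCGG (the GC box, not capitalised here), which occurred in 32.7% of windows, and its GC content was 79.2% against a median of 52.4%. The other Ltbp4 windows, starts 1 and 2, held 3 and 5 GC boxes at 64.4% and 79.2% GC, and are not shown because 80 and 15 of their bases lie in annotated exons. The palindrome GTCTAGAC, found in 0.167% of windows, was in none of the 4. A match says only that these letters occur in the window.

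Ltbp1, on chromosome 17 (75005568 to 75392512, plus strand, GENCODE vM21 on GRCm38), separated the endothelial populations. Its lowest, median and highest values were 1.95, 10.2 and 25.2 normalized CPM in the 10 CD44Neg libraries and 73.9, 170.2 and 239 in the 6 CD44LowKitNeg libraries. Every CD44LowKitNeg library lay above every CD44Neg library, as for 2.50% of genes tested. CD44LowKitPos libraries were at 59.1 (E9.5), 20.2 and 31.1 (both E10), below all CD44LowKitNeg libraries (as for 7.35% of genes) and, with 1 library inside the CD44Neg range, overlapping CD44Neg. CD44High libraries were at 6.33, 20.2 and 0. By mean, CD44LowKitNeg was followed by CD44LowKitPos, CD44Neg and CD44High, and these last 3 overlapped. The study named Ltbp1 as a gene of CD44LowKitNeg cells from these same libraries, so its call below is not independent evidence.

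Ltbp4, on chromosome 7 (27305136 to 27337692, minus strand), showed a wide spread by stage. The CD44LowKitNeg library from E9.5 was at 20.2 normalized CPM, those from E10 at 72.5 and 60.9, and those from E11 at 469.6, 503 and 466.1. The 3 E11 libraries were above the 3 earlier ones, as for 11.9% of genes tested by stage. CD44Neg libraries ranged from 7.58 over a median of 14.5 to 53.0, so the E9.5 CD44LowKitNeg library lay inside their range and the other 5 above it. CD44LowKitPos libraries were at 7.99 (E9.5), 0 and 0.534, and CD44High libraries at 0.990, which was 5 counts, and 0 in both others. By mean, CD44LowKitNeg was followed by CD44Neg, CD44LowKitPos and CD44High, where CD44LowKitPos overlapped both CD44Neg and CD44High.

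Ltbp3 (chromosome 19, 5740904 to 5758532, plus strand) and Ltbp2 (chromosome 12, 84783212 to 84876532, minus strand) were counted mainly in CD44LowKitNeg libraries from E11. Ltbp3 was at 48.3, 54.7 and 34.2 normalized CPM there (359, 423 and 221 counts) and at 0 in the 3 earlier CD44LowKitNeg libraries. It was at 0 in 8 of 10 CD44Neg libraries, with the others at 2.91 and 1.08, and at 0 in all 3 CD44High libraries. CD44LowKitPos libraries were at 0.603, 0 and 1.47. Ltbp3 was thus high in 3 of 22 libraries. Ltbp2 was at 27.8 and 29.6 normalized CPM (207 and 191 counts) in a pair of the E11 CD44LowKitNeg libraries, but at 0.129 (1 count) in the third. It was 0 in the earlier 3, in the 3 CD44LowKitPos libraries and in 9 of 10 CD44Neg libraries. Single libraries of CD44Neg (4.22, 21 counts) and CD44High (3.20, 12 counts) had it too, and 9.34% of its exon bases lie in D030025P21Rik. Because no strand setting is given in the sources used here, reads of that overlap cannot be assigned with certainty.

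**Figure D2:**
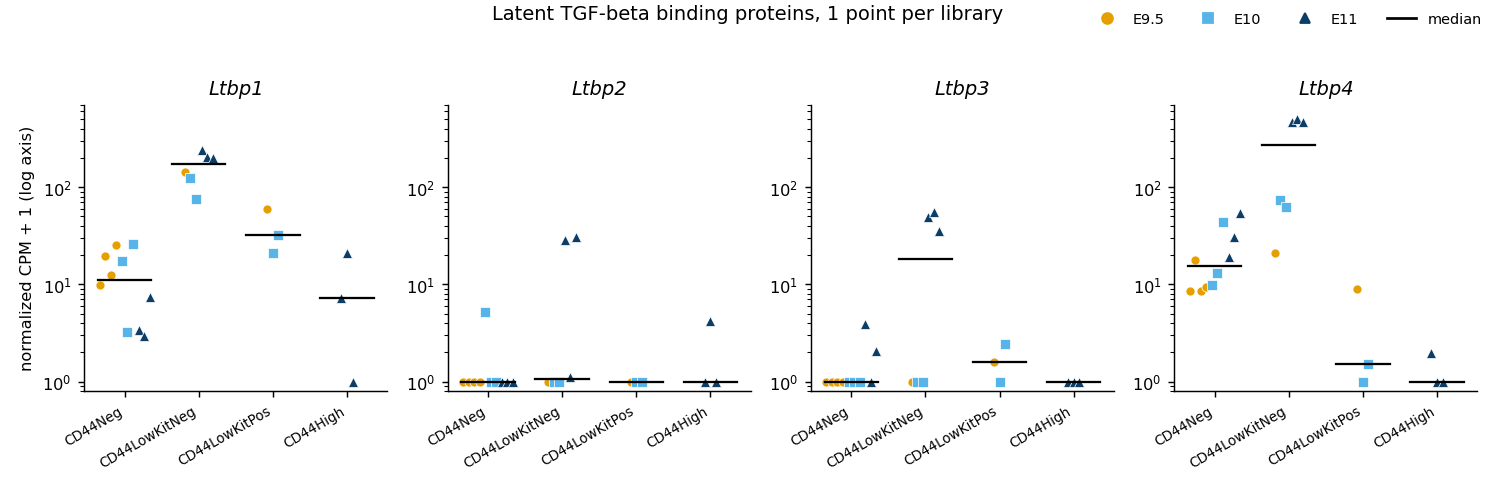
Normalized CPM + 1 on a log axis for the 4 latent binding protein genes in each library, grouped by population, with shape and colour for the embryonic day and a bar at the median. The 6 CD44LowKitNeg libraries lie above the 10 CD44Neg libraries for Ltbp1 (as for 2.50% of genes tested), and the 3 E11 CD44LowKitNeg libraries stand apart for Ltbp4 (466.1 to 503) and Ltbp3 (34.2 to 54.7).

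On the per-kilobase scale, the type I receptor led in CD44Neg cells. Tgfbr1 was at 14.5 ± 4.13 normalized CPM per kb (SD, n = 10), followed by Tgfbr3 at 9.26, Tgfbr2 at 8.02, Tgfb2 at 3.54, Ltbp4 at 3.17 and Ltbp1 at 1.10. The spread of neighbours in this order overlapped. In CD44LowKitNeg libraries from E11, Ltbp4 led at 74.2 ± 3.17 (SD, n = 3), then Tgfbr1 at 21.8 ± 5.04, Ltbp1 at 19.96 ± 2.05, Tgfbr3 at 15.5 ± 2.45 and Tgfbr2 at 9.65 ± 0.521. Ltbp3, at 5.04 ± 1.16, came after these, and Tgfb2, at 2.48 ± 1.07, and Ltbp2, at 2.34 ± 2.02, did not differ beyond their spread. In CD44LowKitNeg libraries from E9.5 and E10, Ltbp1 was at 10.6 ± 3.25 and Ltbp4 at 7.92 ± 4.25 (SD, n = 3 each), below Tgfbr1 at 19.9 ± 5.91. CD44High libraries kept Tgfbr1 at 21.9 ± 10.6 (SD, n = 3) but held Ltbp1 at 0.828 and Ltbp4 at 0.051. Summed over means, latent binding proteins reached 18.5 per kb in the earlier CD44LowKitNeg libraries and 101.6 in the E11 ones, against 39.2 and 47.0 for the receptors. In CD44Neg, CD44LowKitPos and CD44High libraries they reached 4.37, 3.96 and 1.01, against 31.7, 24.6 and 33.4 for the receptors.

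**Figure D3:**
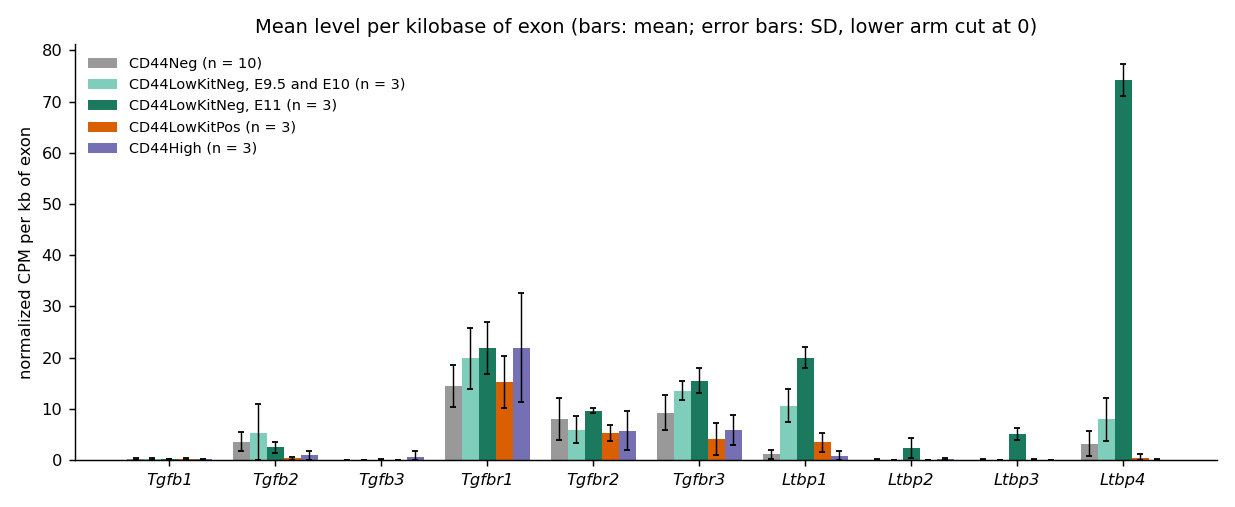
Mean level per kilobase of exon (normalized CPM per kb) of each of the 10 genes, with bars for CD44Neg (n = 10), CD44LowKitNeg from E9.5 and E10 (n = 3) and from E11 (n = 3), CD44LowKitPos (n = 3) and CD44High (n = 3); error bars are SD, with the lower arm ended at 0. Ltbp4 in CD44LowKitNeg cells from E11 is the tallest bar at 74.2 per kb.

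The first comparison asked how the CD44LowKitNeg population differs from other endothelium of the AGM. Here 6 of the 10 genes passed the filter on low counts, and edgeR's quasi-likelihood test called 2 of them at an adjusted p under 0.01, both higher in CD44LowKitNeg, where 10.2% of the 11022 genes tested were called and 4.94% were called higher. Ltbp1 was 3.79 ± 0.48 higher on the log2 scale (SE, edgeR adjusted p = 2.33e-05) and Ltbp4 3.70 ± 0.60 higher (adjusted p = 0.000252). With stage as a covariate the differences were 4.15 ± 0.55 for Ltbp1 (edgeR adjusted p = 4.62e-05) and 2.55 ± 0.47 for Ltbp4 (edgeR adjusted p = 0.000707). For Tgfb2 the log2 difference was 0.14 (95% interval −0.80 to 1.08) and for Tgfbr2 −0.04 (−0.70 to 0.62). Tgfbr1 (0.53 ± 0.20) and Tgfbr3 (0.65 ± 0.27) were not called by edgeR, with adjusted p = 0.0660 and 0.101. Their 95% intervals, 0.14 to 0.93 and 0.11 to 1.19, lay above 0. Ltbp1 was among the 2.50% of genes with every CD44LowKitNeg library above every CD44Neg library. Tgfb1, Tgfb3, Ltbp2 and Ltbp3 did not pass the filter and were not tested. Without the filter Ltbp3 was called as well (log2 difference 5.90, edgeR adjusted p = 0.00648), resting on its E11 libraries. It was at 0 in 8 of 10 CD44Neg libraries and in the 3 earlier CD44LowKitNeg libraries, so this value is a description. With limma voom, Ltbp4 was not called, at 3.18 (adjusted p = 0.0162), and at E10 alone neither gene was (edgeR adjusted p = 0.134 for Ltbp1 and 0.235 for Ltbp4).

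The 2 calls differed in how they sat across stages. Ratios of mean CD44LowKitNeg to mean CD44Neg level for Ltbp1 were 8.86 at E9.5 (1 against 4 libraries), 6.77 at E10 (2 against 3) and 59.9 at E11 (3 against 3). For Ltbp4 they were 1.99, 3.16 and 14.3. In the E11 libraries alone both were called, with log2 differences of 5.90 (adjusted p = 0.000174, edgeR) and 3.88 (adjusted p = 0.000432, edgeR). With the E9.5 and E10 libraries alone and stage as a covariate, an alternative added after seeing the data, Ltbp1 stayed called at 2.95 (edgeR adjusted p = 0.00335) and Ltbp4 was not, at 1.45 (edgeR adjusted p = 0.0809). The change of the population difference from E10 to E11, tested directly as an interaction, was 3.10 ± 0.95 for Ltbp1 and 2.16 ± 0.75 for Ltbp4 on the log2 scale, but edgeR gave adjusted p = 0.254 and 0.311, and called none of the 9 genes that passed the filter, where 0.00806% of all genes were called. At an unadjusted p under 0.05 edgeR had 4 of them, and DESeq2 and voom called 0. The share of all genes at that unadjusted limit was not computed, so no excess is read from this number. Without the filter on low counts edgeR called 3, namely Ltbp1 (adjusted p = 1.01e-05), Ltbp2 (adjusted p = 0.00180) and Ltbp4 (adjusted p = 0.000126), so this result depends on the filter. The share of all genes called in that unfiltered fit was not computed, so these calls cannot be set against a background. Ltbp2 was at 0 in both CD44LowKitNeg libraries from E10 and in all 3 CD44Neg libraries from E11, and its value is a description.

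Markers of other cells moved with this difference. Mesenchyme and smooth muscle markers summed to 207 to 358 normalized CPM in CD44LowKitNeg and 0.465 to 126 in CD44Neg libraries, with 4 to 8 of 12 markers counted in the former and 2 to 6 in the latter. Lum and Col1a1 were at 0 in all libraries of both, and the 5 markers tested had a median log2 difference of 1.93, none of them called. Within CD44LowKitNeg the sum was 207 to 222 at E11 and 247 to 358 earlier, a fall that lay in Acta2, while 6 to 8 markers were counted at E11 and 4 to 6 earlier, and the 7 tested by stage had a median log2 difference of 2.65 towards E11. Haematopoietic markers summed to 104 to 350 in CD44LowKitNeg and 19.6 to 49.7 in CD44Neg libraries, with Spi1 and Laptm5 called higher of 5 tested. Megakaryocyte markers summed to 7.53 to 22.0 and 0 to 7.15, with Gp1ba called higher of 2 tested. Of the 8 endothelial markers, Cdh5 and Tek were called higher. The part of any of these markers in the result was not tested.

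The next comparisons followed the path from CD44LowKitNeg to the Kit-positive and CD44High populations, over all 22 libraries in 1 fit, where 9 of the 10 genes passed the filter. Against CD44LowKitNeg, CD44LowKitPos libraries had 1 gene called, where 4.26% of genes were called and 1.71% were called lower. Ltbp4 was lower by 6.54 ± 1.32 on the log2 scale (edgeR adjusted p = 0.00327), with 53 counts in the CD44LowKitPos library from E9.5 and 0 and 4 in those from E10. This call was lost without either CD44LowKitPos library from E10, with edgeR adjusted p = 0.0289 and 0.0213. It was also lost with the E9.5 and E10 libraries alone and stage as a covariate, with a log2 difference of −4.07 (edgeR adjusted p = 0.0773), and with limma voom, at −7.64 (adjusted p = 0.0665). Tgfb2 (−3.56 ± 0.97) and Tgfbr3 (−1.83 ± 0.50) had edgeR adjusted p = 0.0180 and 0.0170, which meet 0.05, where 12.5% of genes were called, but not 0.01. Other settings did call them at 0.01, namely DESeq2 for Tgfb2 (adjusted p = 0.000190), and DESeq2 (adjusted p = 0.000729), voom (limma adjusted p = 0.00654) and edgeR without CD44LowKitPos replicate 19 (adjusted p = 0.00341) for Tgfbr3. For Ltbp1 the ratio of CD44LowKitPos to CD44LowKitNeg means was 0.421 at E9.5 (1 against 1 library) and 0.258 at E10 (2 against 2), and the log2 difference over all libraries was −2.15 ± 0.86 (edgeR adjusted p = 0.101). Voom called that Ltbp1 difference, at −2.19 (limma adjusted p = 0.00242). Against CD44Neg none of the 9 tested genes was called in CD44LowKitPos libraries, where 3.48% of genes were called. Tgfb2 came nearest at −3.43 ± 0.94 (edgeR adjusted p = 0.0250). At an unadjusted p under 0.05 there were 4 genes, while DESeq2 called Tgfb2 and Ltbp2 and voom called 0. Ltbp2 was at 0 in all 3 CD44LowKitPos and 9 of 10 CD44Neg libraries, so its DESeq2 call is a description. No share of all genes was computed for these other limits, so no excess is read from the numbers. Against CD44LowKitNeg, 5 of 8 endothelial markers were called lower in CD44LowKitPos libraries (median log2 difference −2.37), and 3 of 8 haematopoietic and 2 of 7 megakaryocyte markers were called higher. Of these haematopoietic markers, Ptprc and Gfi1b had under 10 counts in every CD44LowKitNeg library and are a description. Haematopoietic markers summed to 528 to 1429 normalized CPM in CD44LowKitPos libraries, and megakaryocyte markers to 37.1 to 266 against 7.53 to 22.0 in CD44LowKitNeg. The part of these markers in the differences was not tested.

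In CD44High libraries, Ltbp1 was lower than in CD44LowKitNeg libraries, with a log2 difference of −4.20 ± 0.98 (edgeR adjusted p = 0.00245), where 16% of all genes were called and 8.17% were called lower. Ltbp4 had 5, 0 and 0 counts in the CD44High libraries and so entered the fit only through libraries in which it was high. Its fitted log2 difference of −9.35 ± 1.62 (edgeR adjusted p = 0.000134) and the other fitted values of this gene in CD44High libraries are therefore given as a description. The CD44LowKitNeg libraries came from 3 stages and the CD44High libraries from E11 alone, and restricted to E11 the log2 differences were −10.29 (adjusted p = 1.23e-05, edgeR) for Ltbp4 and −4.70 (adjusted p = 0.00543, edgeR) for Ltbp1, with 3 against 3 libraries. Ltbp3 was at least 62.1-fold lower than in CD44LowKitNeg cells from E11, taking 3 counts as the limit for each CD44High library. It was at 0 in all 3 CD44High libraries and entered the E11 fit through the CD44LowKitNeg libraries, so this is given as a description. Leaving out 1 CD44High library (replicate 20) gave edgeR adjusted p = 0.0166 for Ltbp1 with a log2 difference of −4.12, and voom did not call Ltbp4 (−9.05, limma adjusted p = 0.0267). Tgfbr3 differed by −1.32 ± 0.48 (edgeR adjusted p = 0.0447) and Tgfb2 by −2.06 ± 0.89 (edgeR adjusted p = 0.0896), neither past 0.01. The difference of Tgfbr1 was 0.07 ± 0.32 (95% interval −0.56 to 0.70).

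Against CD44Neg, where 14.4% of genes were called and 7.25% were called lower, no gene but Ltbp4 was called in CD44High libraries among the 9 in the fit. With the same 5, 0 and 0 counts, its log2 difference of −5.66 ± 1.46 (edgeR adjusted p = 0.00583) is again a description. That call was lost with each of the 3 CD44High libraries left out (edgeR adjusted p = 0.0157 to 0.0354), and was made at E11 alone with a log2 difference of −6.41 (edgeR adjusted p = 0.000201). Voom did not call it (−5.88, limma adjusted p = 0.196). Against CD44LowKitPos, none of the 9 was called by edgeR, where 3.01% of genes were. At an unadjusted p under 0.05 there was 1 gene, and voom called 0. DESeq2 called Ltbp2, which had 12 counts in 1 CD44High library and 0 in the others of both populations, so that call is a description. No share of all genes was computed for these other limits. Ltbp1 differed between CD44High and CD44LowKitPos by −2.05 ± 0.95 (edgeR adjusted p = 0.251). Mesenchyme markers reached 1068 and 685 normalized CPM in a pair of the CD44High libraries and 0.272 in the third, which was also the library with Ltbp1 at 0, and endothelial and macrophage markers moved as given above. Their part in the differences was not tested.

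**Figure D4:**
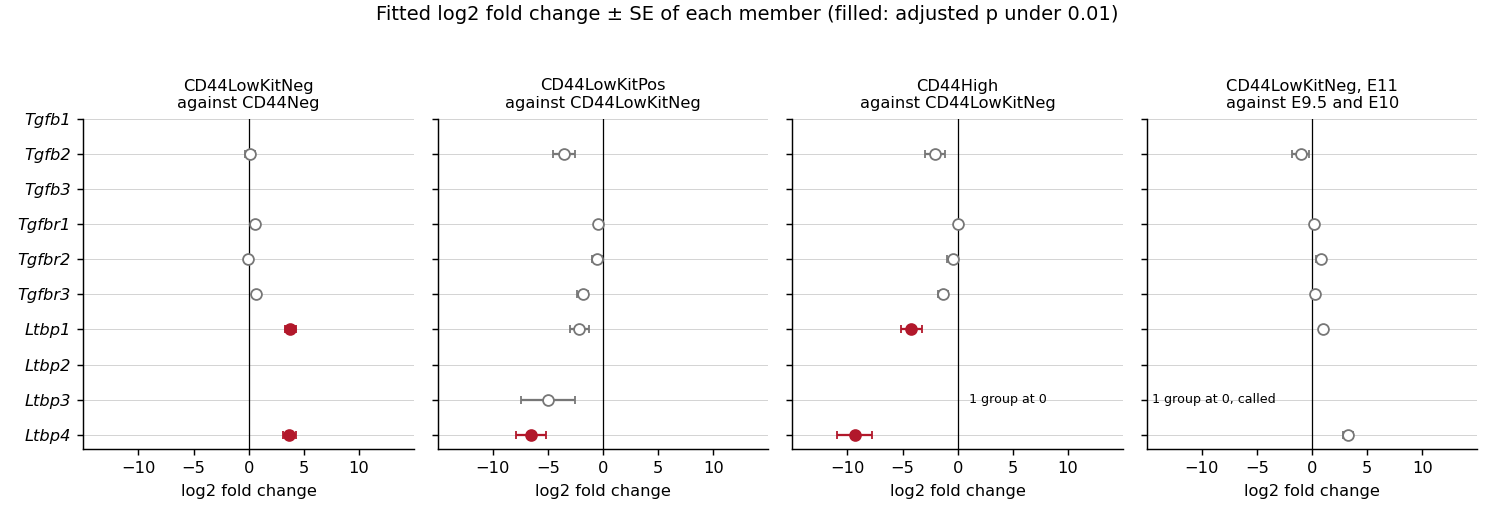
Fitted log2 fold change (horizontal axis) with SE bars for each gene in 4 comparisons, filled where edgeR's adjusted p was under 0.01. No value is drawn for a gene that did not pass the filter or whose groups both had a median at or below 1 normalized CPM, and "1 group at 0" marks Ltbp3 where all libraries of a group were at 0. Ltbp1 and Ltbp4 are called in CD44LowKitNeg against CD44Neg, Ltbp1 in CD44High against CD44LowKitNeg and Ltbp4 in CD44LowKitPos against CD44LowKitNeg. The filled Ltbp4 point in CD44High against CD44LowKitNeg is a description, since that gene had 5, 0 and 0 counts in the CD44High libraries.

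Within populations, stage was compared for the 10 CD44Neg and the 6 CD44LowKitNeg libraries. In CD44LowKitNeg at E11 against E9.5 and E10, 7 of the 10 genes passed the filter, and Tgfb1, Tgfb3 and Ltbp2 were not tested. There edgeR called 0.173% of genes and 0.109% higher, and of these 7 Ltbp3 alone (adjusted p = 0.00759). It was at least 109-fold higher at E11, taking 3 counts as the limit for each earlier library. All 3 earlier libraries were at 0, so Ltbp3 passed the filter only through the libraries in which it was high, and its call is given as a description. Each of the 6 libraries left out in turn lost that call (edgeR adjusted p = 0.0211 to 0.0604). Ltbp4 was 9.37-fold higher by the ratio of means (480 ± 20.5 against 51.2 ± 27.5 normalized CPM, SD, n = 3 each), with a log2 difference of 3.27 ± 0.44 and edgeR adjusted p = 0.0120. Without the filter, with DESeq2, with voom and in the fit of all 22 libraries Ltbp4 was called (edgeR adjusted p = 0.000279 without the filter, limma adjusted p = 0.000975 and edgeR adjusted p = 0.00294 over 22 libraries), whereas Ltbp3 was not with voom (limma adjusted p = 0.0281) or over 22 libraries (edgeR adjusted p = 0.0171). Ltbp1 was 1.89-fold higher (213 ± 21.9 against 113 ± 34.7), with 0.96 ± 0.28 and edgeR adjusted p = 0.116. Over the same libraries endothelial markers summed to 3723 to 5004 normalized CPM at E9.5 and E10 and 7230 to 8666 at E11, and macrophage markers to 35.8 to 80.0 and 0 to 9.95. Haematopoietic markers summed to 108 to 350 earlier and 104 to 154 at E11, and of the 6 tested, with a median log2 difference of −3.98, Runx1 was called lower, with under 10 counts in every E11 library. The part of these markers was not tested. In CD44Neg none of the 6 tested genes was called by edgeR between E11 and E9.5, where 0.684% of genes were called, with 3 at an unadjusted p under 0.05, 1 called by DESeq2 and 0 by voom, limits for which no share of all genes was computed. The log2 differences there were 1.44 ± 0.34 for Tgfbr2 (edgeR adjusted p = 0.0316, and 0.00394 without the filter, which called it), 1.75 ± 0.60 for Ltbp4 (adjusted p = 0.139, edgeR) and −2.11 ± 0.83 for Ltbp1 (adjusted p = 0.203, edgeR). Endothelial markers there summed to 3519 to 4297 normalized CPM at E9.5 and 5662 to 5924 at E11, with Pecam1, Tie1 and Esam called higher of 8. Mesenchyme markers summed to 31.1 to 126 at E9.5 and 0.465 to 17.5 at E11, with Tagln called lower of 4 tested (under 10 counts in every E11 library), and the part of either list was not tested. The label date changes with stage in all of these.

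Other genes of the pathway, in lists chosen with earlier results of these data known, gave a background for these values. The study had already reported Smad7 as higher in CD44LowKitNeg cells in these same libraries. It had also reported Fbn1 as higher there by single-cell PCR, so the shares of these lists are not independent evidence. In CD44LowKitNeg against CD44Neg, 4 of 18 SMAD signalling genes were higher and none lower (4.94% of all genes were called higher), with a median log2 difference of 0.59 over the list and 0.01 over all genes tested. These were Pmepa1 (2.23 ± 0.40) and Smad7 (2.09 ± 0.43), both feedback inhibitors of the pathway, and Skil (1.27 ± 0.23) and Ski (0.90 ± 0.23), both SMAD corepressors. Smad7 was at 64.6 ± 35.7 normalized CPM in CD44LowKitNeg and 15.3 ± 11.3 in CD44Neg libraries.

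Of 24 genes of the latent complex and its matrix, 18 were tested in that comparison, 6 were higher and 1 lower, where 10.2% of all genes were called, with a median of 1.20. Higher were Htra1 (a secreted protease, 6.24 ± 0.84), Eln (elastin, 6.20 ± 1.01), Fbn1 (fibrillin-1, 3.72 ± 0.35), Fn1 (fibronectin, 2.60 ± 0.23), Furin (a protease that cuts the TGF-beta precursor, 1.68 ± 0.34) and Fbn2 (0.96 ± 0.21). Fibrillin-1 and fibronectin carry latent binding proteins in the matrix, and Fbn1 was at 643 ± 190 normalized CPM in CD44LowKitNeg and 49.2 ± 27.6 in CD44Neg libraries. Lower was Lrrc32 (GARP, a cell surface holder of latent TGF-beta), at −1.73 ± 0.32, with 13.4 ± 4.04 against 44.9 ± 18.3 normalized CPM. Lrrc32 was at 0 in all 3 CD44High libraries. Nrros, the related holder of latent TGF-beta on myeloid cells, was at 213 ± 69.1 normalized CPM there and at 19.9 ± 15.2 in CD44LowKitNeg libraries.

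Of 18 target genes, 13 were in the fit, with none called higher and 2 called lower, where 10.2% of all genes were called, and a median of −0.07. Snai1, a transcription factor, fell by 3.46 on the log2 scale (SE 0.67). The other call is a description only, since Tgfbi, a matrix protein, passed the filter through the CD44Neg libraries: it was at 0 in all 6 CD44LowKitNeg libraries and between 0 and 139.5 normalized CPM in CD44Neg libraries. At E11 against earlier stages in CD44LowKitNeg, 3 of 20 tested matrix genes were higher, against 0.109% of all genes, namely Fbln5 (an elastic fibre protein), Htra1 and Mmp2, with log2 differences of 8.92, 4.34 and 1.99. In CD44High against CD44LowKitNeg, 9 of 18 SMAD genes were lower and 13 of 22 matrix genes lower, against 8.17% of all genes, with medians of −1.68 and −3.03, and Nrros was the 1 matrix gene that was higher. Of those 13, Lrrc32 and Htra1 had under 10 counts in every CD44High library and are a description. In the same comparison 8 of 8 endothelial markers were called lower (median −8.32) and 9 of 9 macrophage markers higher (median 13.1). Of these, 3 endothelial and 5 macrophage markers had under 10 counts in every library of the lower group and are a description. The part of these markers in the fall of the lists was not tested.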

How the data were processed

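Raw counts per gene were deposited by the authors for 22 libraries of 25 sorted cells. SMART-Seq2 cDNA was sequenced as Nextera libraries, adaptors were clipped (FASTX), reads aligned (RNA STAR) and counted with htseq-count, and the submitters' processing notes name FastQC, HTSeq and mm10. The strand setting and annotation are not given in the sources used here. Groups were taken from the labels, and all columns were mapped. The 10 genes and the pathway and marker lists were chosen with earlier results of these data known. All 10 genes are named, and from the lists those called in CD44LowKitNeg against CD44Neg and up to 4 with the largest difference elsewhere.

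Genes passing filterByExpr (minimum count 10, minimum total 15) were scaled by TMM and tested with edgeR 4.0.16 (R 4.3.3), using quasi-likelihood tests with Benjamini-Hochberg adjustment over all genes and calling at 0.01. The test was checked on simulated counts. DESeq2 1.42.0, limma 3.58.1 voom, RLE scaling, other filters, stage covariates and libraries left out were alternatives. A fitted fold is given where 1 compared group has a median above 1 normalized CPM. Lengths per kb are GENCODE vM21 exon unions, and RefSeq promoters matched 8 of 10 genes. Python 3.11.15, pandas 2.3.3 and matplotlib 3.10.9 were used for summaries and plots.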

Additional observations from a re-analysis of the deposited data

Results flagged for a closer look

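Among 26 groups of 4 to 10 libraries tested with Dixon's 95% limit, 8 held a library whose gap to the next was above the limit, where chance gives about 1 in 20. Tgfb2 was at 67.8 normalized CPM in a CD44LowKitNeg library from E10 (replicate 16), with the next at 19.8. Ltbp4 was at 16.9 in a CD44Neg library from E9.5 (replicate 5), with the next of that stage at 8.47. Ltbp2 was at 4.22 in a CD44Neg library from E10 (replicate 8) and 0 in the 9 others. Ltbp3 was at 2.91 in a CD44Neg library from E11 (replicate 1), with the next at 1.08. Tgfb3 was at 0.538 in a CD44LowKitNeg library from E11 (replicate 11) and 0 in the others. Tgfb1 was at 4.18 in a CD44Neg library from E11 (replicate 3) with the next at 1.41, at 1.29 in a CD44Neg library from E9.5 (replicate 7) with the next of that stage at 0.239, and at 1.68 in a CD44LowKitNeg library from E10 (replicate 15) with the next at 0.906. The Ltbp2, Ltbp3, Tgfb3 and Tgfb1 groups were at or near 0 counts, where a single library with counts passes this limit, and the chance rate assumes normal values, so no excess is read from the number. Their causes were not tested.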

How the results depend on the processing

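No paired analysis was possible because each library has its own replicate number. Over the other settings, 404 fitted differences kept their direction and side of the threshold, 23 came to pass it (7 of them only because it was set at 0.05), 10 no longer passed it and 15 reversed. The cause was not tested unless the setting itself removes libraries or genes.

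For CD44LowKitNeg against CD44Neg, 2 genes were called with any 1 library left out, 3 (Ltbp3 added, as a description) with no filter or with 10 counts in 3 libraries, 1 with voom, 0 at E10 alone and 1 with E9.5 and E10 libraries and stage. For CD44LowKitPos against CD44LowKitNeg, 4 were called with DESeq2, 2 with voom, 3 at 0.05, 0 in the early libraries and 0 to 2 with 1 library left out. Of these DESeq2 calls, Ltbp2 is a description, as it was at 0 in all 3 CD44LowKitPos libraries. For CD44LowKitPos against CD44Neg, 2 were called with DESeq2 (Tgfb2, and Ltbp2 as a description) and 1 at 0.05. For CD44High against CD44LowKitPos, 1 was called with DESeq2 (Ltbp2) and 1 with stage as a covariate (Ltbp3). Both are a description, since Ltbp2 had counts in 1 CD44High library and in no CD44LowKitPos library. Ltbp3 was at 0 in all 3 CD44High libraries. No stage holds both populations, so the stage covariate there rests on stage acting alike in every population. For CD44High against CD44LowKitNeg, 1 was called with voom, 4 at 0.05, 3 (Ltbp3 added, as a description) with stage as a covariate or at E11 alone and 1 to 2 with 1 library left out. For CD44High against CD44Neg, 0 were called with voom and 0 to 1 with 1 library left out. For CD44Neg over stages, 1 was called with no filter, DESeq2 or 0.05. For CD44LowKitNeg over stages, 2 were called with no filter, DESeq2 or 0.05, and 0 with any library left out. For the interaction, 3 were called with no filter.

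The reversed log2 differences were of genes not called in that comparison. In CD44LowKitNeg against CD44Neg, Tgfbr2 was 0.023 with RLE scaling and with DESeq2 and 0.051 with voom, and Tgfb2 was −0.021 with voom and −0.92 at E11 alone. In CD44High against CD44LowKitNeg, Tgfbr1 was −0.00098 with RLE, −0.00091 with DESeq2, −0.020 with voom and −0.099 at E11 alone. In CD44High against CD44LowKitPos, Tgfbr2 was −0.086 with voom and −0.85 with stage. Ltbp3 in CD44LowKitPos against CD44LowKitNeg was 3.44 with stage, Ltbp1 in CD44High against CD44Neg was 0.16 with stage and 1.21 at E11 alone, and Tgfbr2 in the interaction was 0.056 with voom. With 1 library left out, the ranges that crossed 0 were −0.15 to 0.15 (Tgfbr2) and −0.61 to 0.32 (Tgfb2) in CD44LowKitNeg against CD44Neg, −0.33 to 0.33 (Tgfbr1) in CD44High against CD44LowKitNeg, −0.65 to 0.38 (Tgfbr2) in CD44High against CD44LowKitPos, −0.12 to 0.33 (Tgfbr1) in CD44LowKitPos against CD44Neg, −1.87 to 0.091 (Ltbp1) in CD44High against CD44Neg, −0.18 to 0.12 (Tgfbr1) in CD44Neg over stages, −0.057 to 0.36 (Tgfbr1) and −1.49 to 0.29 (Tgfb2) in CD44LowKitNeg over stages, and −0.60 to 0.82 (Tgfbr2) and −0.18 to 0.79 (Tgfbr1) in the interaction. The 3-library groups and the 1 CD44LowKitNeg library from E9.5 limit every comparison by stage.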

Other observations

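Over the 22 libraries and the 12949 genes that passed the filter, the genes whose log2 levels followed each family member most closely were listed as a description. The libraries share depth and population, so no test is attached. The closest to Ltbp4 were Epas1 (Pearson r = 0.94), which encodes the endothelial hypoxia-inducible factor HIF-2alpha, Pcsk5 (0.93), a proprotein convertase, and Elovl5 (0.93), a fatty acid elongase. The closest to Ltbp1 were Tm9sf3 (0.88), Tspan3 (0.88) and Fn1 (0.87), the fibronectin gene. Ltbp3, with counts in few libraries, was followed by Shroom1 (0.94), Dlx5 (0.91) and Nkain4 (0.91). Tgfb2 was followed by Sox11 (0.85), Nfib (0.83) and Gng12 (0.83), and Tgfbr3 by Stard13 (0.84), Smurf2 (0.83) and Bmpr2 (0.83). Among family members, r was 0.76 for Tgfbr3 with Ltbp4 and 0.72 for Tgfb2 with Tgfbr3.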
